A study of Mus musculus with 4 samples.

Results

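Mitosis is driven by a small set of conserved machines: kinesin motors that build and move the spindle, the kinetochore that ties centromeres to microtubules, the condensin and cohesin rings that shape and hold chromosomes, and the kinases and cyclins that time their action. The genes described here carry the names of these families or proteins. They were chosen by gene name alone (Kif, Cenp, Bub1, Bub3, Mad2, Aurk, Plk, Ncap and Smc names, and 13 single genes such as Mki67 and Cdk1) and had to be well above background on at least 1 spot of at least 1 array. On the array 83 such names met this condition and 24 did not; in all, the array held 31703 gene names, 17663 of them detected somewhere in the series. By known role, 56 of the 83 were sorted into 6 mitotic groups, and the remaining 27 were kinesins of transport and other functions, other genes with Smc or Plk names, and Mad2l2, a DNA repair protein. Plk1s1 (now Kiz), a centrosomal protein and no kinase, is among the Plk names. Aurkaip1, a mitochondrial protein that binds Aurora A, was kept in the mitotic kinase group. Kif4b and Kifc5c, now named as pseudogenes (Kif4-ps and Kifc5c-ps), are among the kinesins of transport and other functions. Bub1 met the rule on background by 1 of 40 spots, Cenpq by 1 of 44, an outlier spot left out of its level, and Kif26a by a second probe alone, which left 80 with a measured level.

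RNA came from mouse erythrocyte/megakaryocyte progenitors (MEP), the shared precursors of red cells and of the megakaryocytes that shed platelets, on a C57BL/6 background. Each of 4 groups had 1 one-colour array: Ezh2-null and wild-type progenitors from fetal liver at E14.5, and Ezh2-null and wild-type progenitors from adult bone marrow. Ezh2 is the histone methyltransferase of Polycomb repressive complex 2, which marks genes for silencing. The labels give neither the deleted part of Ezh2, the driver of the deletion and its timing, nor the isolation, the number of animals or their sex. Replication is lacking, with 1 array in a group, and a 2-fold threshold was used to describe size, not to test. Levels are spot intensities of the brightest probe of a gene, scaled to a common 75th percentile, and cannot be set against those of another gene. Where a probe was dim on one side of a comparison, its difference is a bound ("at least N-fold").

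Of 39418 probes, 39.0% to 46.4% were well above background on an array, most in Ezh2-null fetal liver. The Ezh2 probe read 194 in Ezh2-null and 33.5 in wild-type fetal liver, and 70.0 in Ezh2-null and 35.4 in wild-type bone marrow. It was brighter on the arrays labelled Ezh2-null, and since the deleted part is not given it checks nothing: every genotype here rests on the labels. Of 10 erythroid markers listed, 9 were on the array and 8 were well above background on every array, with a summed level of 17868 in Ezh2-null and 56902 in wild-type fetal liver, and of 22033 in Ezh2-null and 12746 in wild-type bone marrow. Of 10 megakaryocyte markers, 5 to 8 were detected, with summed levels of 1043 in Ezh2-null and 464 in wild-type fetal liver, and of 833 in Ezh2-null and 336 in wild-type bone marrow. Single markers of this list went both ways. In fetal liver Itgb3 read 289 in Ezh2-null and 43.7 in wild type, and Plek 254 in Ezh2-null and 5.22, not well above background, in wild type. Vwf read 29.0 in Ezh2-null and 56.0 in wild-type fetal liver.

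Many genes of mitosis share promoter elements: the cell cycle genes homology region (TTTGAA), bound with partners by the DREAM and B-Myb–MuvB complexes, the CCAAT box bound by NF-Y, and E2F sites. RefSeq promoter windows of assembly GRCm38.p6, the 250 bases before the transcript start, were at hand for 67 of the 83 members. TTTGAA, on either strand, lay in 14 of 49 mitotic members (28.6%), against 16.3% of all 27025 promoters of that length and 1 of 18 remaining members (5.56%). CCAAT lay in 57.1% of the mitotic members, against 34.5% of all promoters and 16.7% of the remaining members. The pair of both elements was held by 24.5% of the mitotic members, against 5.73% of all promoters. At least 1 of the E2F sequences TTTCCCGC, TTTGGCGC and TTTCGCGC was held by 12.2% of the mitotic members, against 1.59% of all promoters. The motifs were searched on both strands and independently, so matches of different motifs may overlap, and a match is a description, not a bound site.

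The first 5 windows below belong to members whose signal was highest in Ezh2-null fetal liver and hold TTTGAA (Mki67, Top2a, Smc2, Ncapg2 and Kif11). The next 3 belong to members within 2-fold between the genotypes in fetal liver that hold it too (Cdk1, Cdc20 and Ccnb2). The last 2, Ndc80 and Ncaph, were at least 7-fold higher in Ezh2-null fetal liver and hold none of the motifs in the window. Capitals mark the motifs on either strand, and each sequence runs 5′ to 3′ on the strand of its gene, ending at the base before the start.
Mki67: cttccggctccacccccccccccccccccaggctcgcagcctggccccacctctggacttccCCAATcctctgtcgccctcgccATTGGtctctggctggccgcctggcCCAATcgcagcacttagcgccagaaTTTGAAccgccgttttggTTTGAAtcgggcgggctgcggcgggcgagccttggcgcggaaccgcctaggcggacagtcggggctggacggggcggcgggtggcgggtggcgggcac
Top2a: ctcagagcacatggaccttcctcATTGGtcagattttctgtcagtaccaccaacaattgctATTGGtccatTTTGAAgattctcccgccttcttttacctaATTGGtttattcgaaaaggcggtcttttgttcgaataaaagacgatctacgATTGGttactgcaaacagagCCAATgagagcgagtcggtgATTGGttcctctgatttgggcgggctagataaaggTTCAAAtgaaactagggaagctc
Smc2: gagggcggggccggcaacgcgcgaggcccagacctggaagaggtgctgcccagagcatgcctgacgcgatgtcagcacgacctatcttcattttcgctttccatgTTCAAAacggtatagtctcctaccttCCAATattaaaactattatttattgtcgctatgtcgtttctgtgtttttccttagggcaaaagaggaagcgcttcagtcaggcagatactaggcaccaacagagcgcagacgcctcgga
Ncapg2: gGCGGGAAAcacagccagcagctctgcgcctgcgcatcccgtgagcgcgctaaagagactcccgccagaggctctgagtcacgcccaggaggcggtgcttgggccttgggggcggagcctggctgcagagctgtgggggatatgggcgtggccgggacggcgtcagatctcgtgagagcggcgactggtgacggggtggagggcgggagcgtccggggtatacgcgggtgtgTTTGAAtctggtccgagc
Kif11: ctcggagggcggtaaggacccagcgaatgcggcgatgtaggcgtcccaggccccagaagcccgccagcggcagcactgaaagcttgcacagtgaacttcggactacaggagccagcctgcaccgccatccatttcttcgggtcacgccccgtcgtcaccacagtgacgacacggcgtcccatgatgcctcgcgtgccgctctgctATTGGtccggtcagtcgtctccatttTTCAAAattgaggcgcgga
Cdk1: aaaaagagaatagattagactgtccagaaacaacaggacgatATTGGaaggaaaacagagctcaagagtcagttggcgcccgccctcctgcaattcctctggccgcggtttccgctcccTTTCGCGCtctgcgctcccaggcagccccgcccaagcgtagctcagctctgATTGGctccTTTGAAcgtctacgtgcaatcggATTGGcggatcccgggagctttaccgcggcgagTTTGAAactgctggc
Cdc20: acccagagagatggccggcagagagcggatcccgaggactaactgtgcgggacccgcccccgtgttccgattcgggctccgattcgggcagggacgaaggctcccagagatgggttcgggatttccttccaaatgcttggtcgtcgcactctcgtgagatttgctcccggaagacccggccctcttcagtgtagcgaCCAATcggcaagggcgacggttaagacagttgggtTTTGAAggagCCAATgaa
Ccnb2: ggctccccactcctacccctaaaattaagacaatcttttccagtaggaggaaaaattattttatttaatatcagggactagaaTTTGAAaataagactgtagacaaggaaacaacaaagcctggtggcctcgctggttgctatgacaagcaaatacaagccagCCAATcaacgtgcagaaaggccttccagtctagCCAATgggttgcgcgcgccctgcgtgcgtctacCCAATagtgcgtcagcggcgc
Ndc80: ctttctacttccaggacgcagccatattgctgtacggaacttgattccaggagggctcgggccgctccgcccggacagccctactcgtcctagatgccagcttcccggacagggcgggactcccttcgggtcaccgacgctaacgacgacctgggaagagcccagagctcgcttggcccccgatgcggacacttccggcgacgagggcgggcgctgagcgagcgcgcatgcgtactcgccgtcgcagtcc
Ncaph: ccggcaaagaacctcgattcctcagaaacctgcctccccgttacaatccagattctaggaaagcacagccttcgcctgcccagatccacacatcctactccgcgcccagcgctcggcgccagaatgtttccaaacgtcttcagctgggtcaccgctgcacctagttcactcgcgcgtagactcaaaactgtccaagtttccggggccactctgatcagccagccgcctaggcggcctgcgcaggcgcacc

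In GRCm38.p6 the windows lie at chr7:135716380-135716629 (minus strand) for Mki67, chr11:99024190-99024439 (minus strand) for Top2a, chr4:52438971-52439220 (plus strand) for Smc2, chr12:116405186-116405435 (plus strand) for Ncapg2, chr19:37376132-37376381 (plus strand) for Kif11. The others lie at chr10:69352913-69353162 (minus strand) for Cdk1, chr4:118437344-118437593 (minus strand) for Cdc20, chr9:70421555-70421804 (minus strand) for Ccnb2, chr17:71526858-71527107 (minus strand) for Ndc80 and chr2:127133955-127134204 (minus strand) for Ncaph. Mki67 and Cdk1 hold 2 TTTGAA copies and 3 CCAAT copies each. In Mki67 the first TTTGAA begins 116 bases before the start and the second 98 bases before it. In Cdk1 the copy nearer the start begins 15 bases before it, and the E2F sequence TTTCGCGC begins 131 bases before it. Top2a holds 6 CCAAT copies, 5 of them on the opposite strand, and Ccnb2 holds 3 on the same strand, which begin 87, 54 and 21 bases before the start. Set against the fetal liver difference, TTTGAA lay in 5 of 19 mitotic members at least 2-fold higher in Ezh2-null fetal liver (26.3%), in 7 of 20 within 2-fold (35%) and in 0 of 4 at least 2-fold lower. Bounds under 2-fold, such as that of Top2a, were counted as within 2-fold here, though the difference behind a bound may be larger.

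In fetal liver 6 of 9 condensin and cohesin genes and 8 of 14 kinetochore and centromere genes were at least 2-fold higher on the Ezh2-null array, with 1 and 3 at least 2-fold lower, while 9 of 12 mitotic kinases, cyclins and passenger genes lay within 2-fold. The role groups also differ in the position of their probes, given below. Of 73 members measured in this pair, 28 (38.4%) were at least 2-fold higher in Ezh2-null fetal liver and 7 (9.59%) at least 2-fold lower, where 15.4% and 13.3% of all 16252 genes measured were (28.7% either way). Among called genes 53.7% were higher, a share of 84.1% with spike-in scaling, 41.7% with the percentile over all probes and 42.8% with normexp; among called members it was 80%, against 88.9%, 77.1% and 69.2% with those settings. The median member difference was 0.22 on the log2 scale, against −0.14 over all genes, and 24 of the 73 values were bounds. With normexp 9 of 74 members were higher and 4 lower, where 4.89% and 6.54% of all genes were. Among the 44 detected on every array 13 were higher and 6 lower, where 12.6% and 14.1% of such genes were. Only members detected on 1 of the 2 arrays or both enter this count. Of the 83 members, 72 were well above background in Ezh2-null and 50 in wild-type fetal liver, as a description, since each had to be detected somewhere. In such bulk samples a different share of mitotic cells and a different amount of these RNAs in each cell cannot be told apart.

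**Figure D1:**
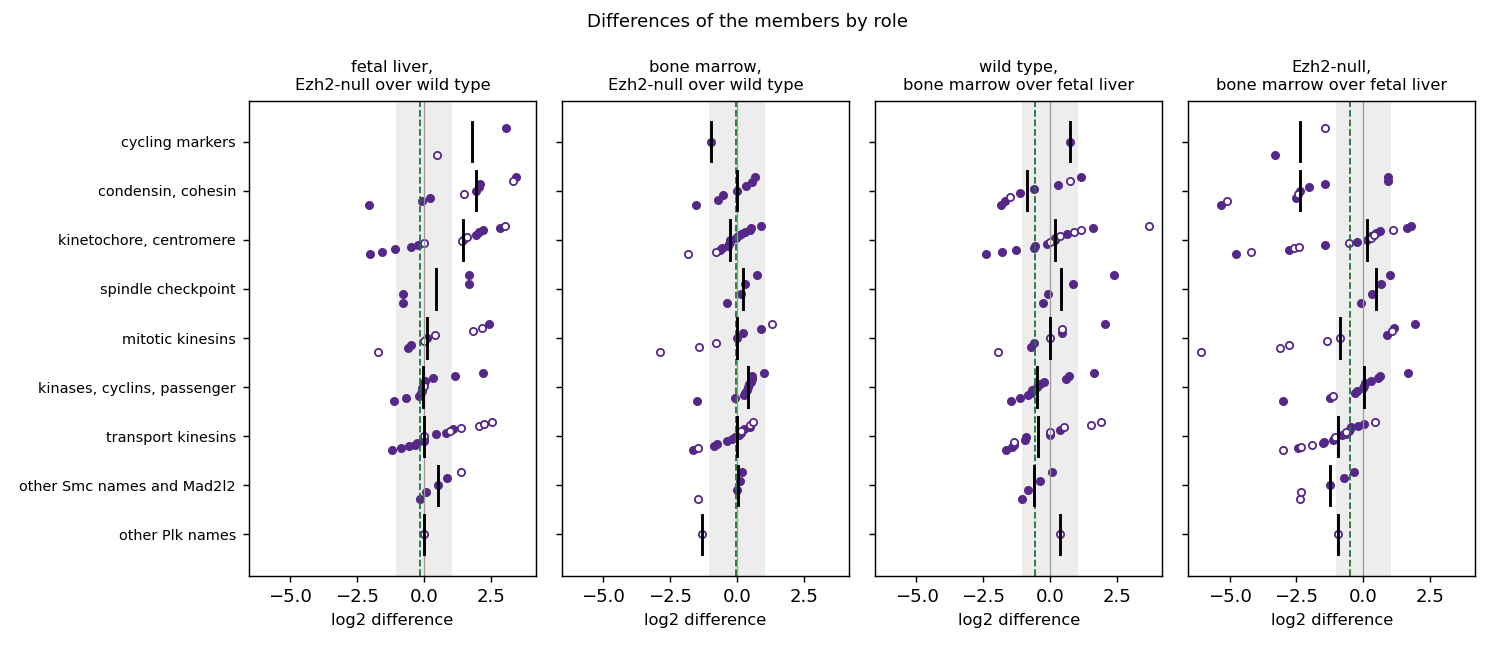
Difference of each member on the log2 scale (horizontal axis) by role (rows) in the 4 pairwise comparisons. Filled points were well above background on both arrays, open points are bounds, black bars are group medians, the dashed line is the median of all genes and the grey band spans differences under 2-fold; in fetal liver the condensin, cohesin and kinetochore medians (1.94 and 1.47) lie outside that band and those of the kinases and cyclins (−0.03) inside it.

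Mki67 encodes the surface protein of mitotic chromosomes that is the common marker of cycling cells. Its brightest probe (mm9, chr7:142884764-142884823) read 1057 in Ezh2-null and 125 in wild-type fetal liver, and 108 in Ezh2-null and 209.5 in wild-type bone marrow. The Ezh2-null fetal liver array stood 8.44-fold above wild type, while in bone marrow the Ezh2-null array was the lower, by 1.94-fold. A second probe nearer the 3′ end read 131 in Ezh2-null and 86.2 in wild-type fetal liver, and 25.2 in Ezh2-null and 30.0 in wild-type bone marrow. It went the same way in both sources, but under 2-fold, 0.60 on the log2 scale in fetal liver. Top2a, the topoisomerase that untangles sister chromatids, was detected in Ezh2-null fetal liver alone, at 27.1, against 4.82 in wild type. In bone marrow it read 4.89 in Ezh2-null and 2.62 in wild type, and its bound in fetal liver was 0.49 on the log2 scale.

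Condensin and cohesin are ring complexes built around pairs of SMC ATPases. Condensin compacts mitotic chromosomes, and cohesin holds sister chromatids together. All 9 detected genes of these complexes were measured in fetal liver; the Ezh2-null array was higher by 2-fold or more for 6 of them and lower for 1, with a median of 1.94. With normexp background correction 4 of the 9 were higher (median 0.36), where 4.89% of all genes were. Smc2, the SMC subunit shared by both condensins, read 341 in Ezh2-null and 31.6 in wild-type fetal liver, and was not well above background in bone marrow (8.68 in Ezh2-null and 8.66 in wild type). This was a 10.8-fold difference in fetal liver. Its partner Smc4 was detected in Ezh2-null fetal liver alone, at 54.3, against 8.20 in wild-type fetal liver, at least 2.81-fold higher.

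The cohesin genes went the same way in fetal liver. Smc3 read 887 in Ezh2-null and 209.7 in wild-type fetal liver, a 4.23-fold difference, and Smc1a read 604 in Ezh2-null and 158 in wild type, a 3.82-fold difference. In bone marrow they parted: Smc3 read 22.4 in Ezh2-null and 64.8 in wild type, 2.89-fold lower, and Smc1a read 116 in Ezh2-null and 73.0 in wild type, 1.59-fold higher. Within the non-SMC subunits the genes also parted. Ncaph, the kleisin of condensin I, read 194 in Ezh2-null fetal liver and 14.7, not well above background, in wild type, at least 10.1-fold higher. Ncaph2, the kleisin of condensin II, read 189.5 in Ezh2-null and 777 in wild-type fetal liver, 4.10-fold lower. Its second probe read 216 in Ezh2-null and 637 in wild type, also lower by more than 2-fold. Ncapg2, a HEAT-repeat subunit of condensin II, read 94.1 in Ezh2-null and 22.6 in wild-type fetal liver, 4.16-fold higher, whereas Ncapd2 (131 in Ezh2-null and 112 in wild type) and Ncapd3 (76.5 in Ezh2-null and 80.7 in wild type) lay within 2-fold. Ncapg had no spot above background in the series.

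The kinetochore and centromere group had 18 detected members, 14 of them measured in fetal liver, where 8 were at least 2-fold higher on the Ezh2-null array and 3 lower (median 1.47). The NDC80 complex, the main microtubule binder of the kinetochore, has 4 subunits, and these went different ways. Ndc80 read 184 in Ezh2-null and 25.9 in wild-type fetal liver, 7.12-fold higher. Spc25 read 449.6 in Ezh2-null and 98.0 in wild-type fetal liver, 4.59-fold higher. Its dimer partner Spc24 read 342 in Ezh2-null and 1370.0 in wild-type fetal liver, 4.0-fold lower. Nuf2, the dimer partner of Ndc80, was detected in Ezh2-null fetal liver alone (14.4, against 10.2 in wild type), below the floor of the wild-type array, so no difference could be given. The probes of these genes begin at different points of their transcripts, 1003 bases in for Ndc80, 1101 for Spc25 and 434 for Spc24.

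Among other kinetochore genes, the plus-end motor Cenpe read 326 in Ezh2-null and 78.9 in wild-type fetal liver, 4.13-fold higher. Cenpk, of the constitutive centromere network, read 157 in Ezh2-null and 40.5 in wild-type fetal liver, 3.86-fold higher. Cenpo, of the same network, read 159 in Ezh2-null and 16.7, not well above background, in wild-type fetal liver, at least 8.22-fold higher. This probe is printed 10 times, and the log2 SD between its spots was 0.088 in Ezh2-null and 0.320 in wild-type fetal liver, an error within an array only. A second Cenpo probe also read higher in Ezh2-null fetal liver, at 33.2 against 4.56 in wild type, but under 2-fold as a bound. Cenpa, the histone H3 variant that marks centromeres, went the other way, with 80.2 in Ezh2-null and 238 in wild-type fetal liver, 2.97-fold lower. The third lower gene was Cenpv (2.11-fold), named after its value was seen. Cenpf was not well above background on any array.

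The spindle checkpoint delays anaphase until every kinetochore is attached. Of its 4 measured members, Bub1b (75.9 in Ezh2-null and 23.7 in wild-type fetal liver, 3.20-fold) and Mad2l1 (142 in Ezh2-null and 43.6 in wild type, 3.25-fold) were higher on the Ezh2-null array. Bub3 was 782 in Ezh2-null and 1335 in wild type, and Mad2l1bp, which opposes Mad2, was 134 in Ezh2-null and 231 in wild type, both within 2-fold. The probes of Mad2l1 disagreed. That nearest the 3′ end read 28.1 in Ezh2-null and 82.1 in wild-type fetal liver, lower by 1.55 on the log2 scale, while the remaining probe read 42.5 in Ezh2-null and 4.36, not well above background, in wild type. The Bub1 probe was above background in 1 of 10 spots on the wild-type bone marrow array and in 0 on the remaining arrays.

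**Figure D2:**
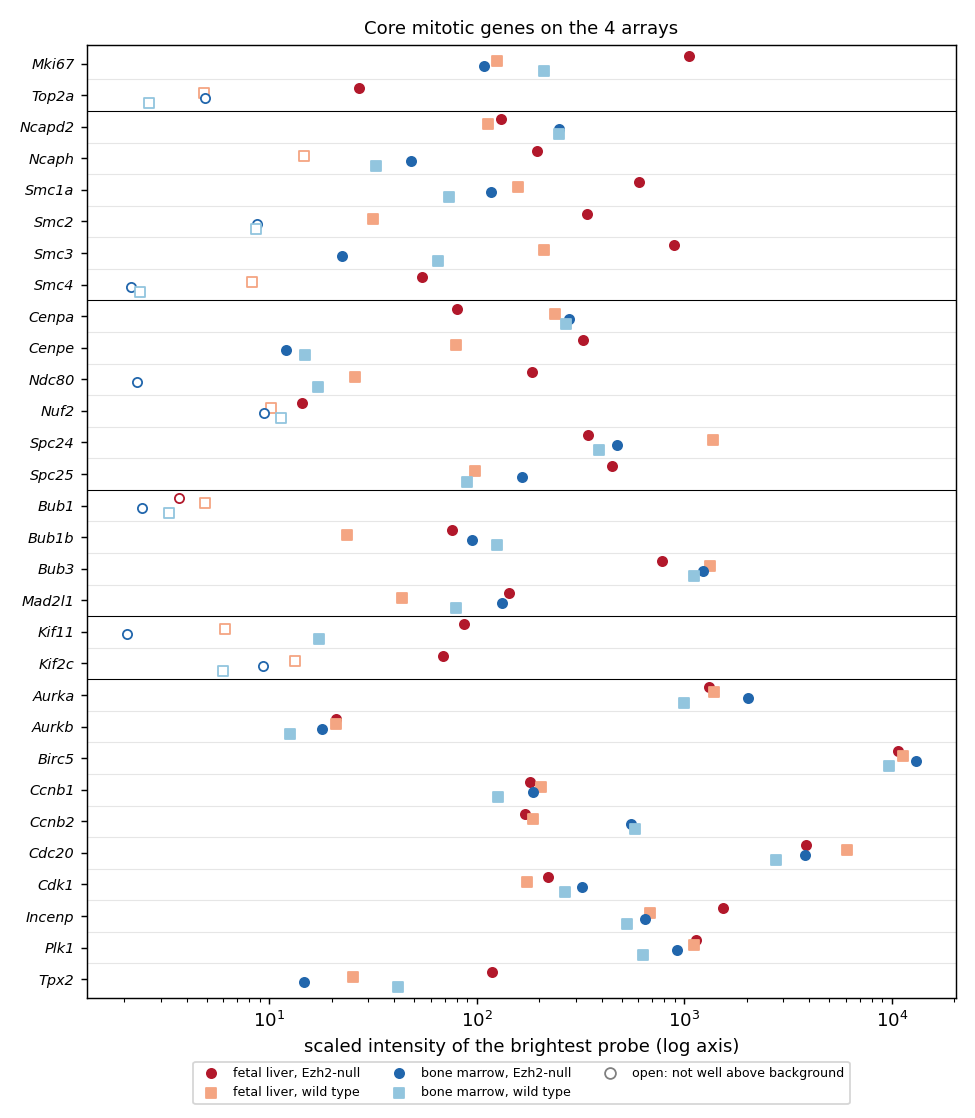
Scaled intensity of the brightest probe (horizontal axis, log scale) of 30 core mitotic genes on the 4 arrays, 1 array for each group; open symbols were not well above background. In fetal liver the Ezh2-null symbols of Mki67, Smc2, Smc3, Ndc80 and Tpx2 lie right of wild type and those of Cenpa and Spc24 left of it, while Aurka, Birc5, Cdk1 and Plk1 lie close together.

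Of the mitotic kinesins, 9 were measured in fetal liver, 3 at least 2-fold higher on the Ezh2-null array and 1 lower. Kif2a, a motor that takes microtubules apart at spindle poles, read 668 in Ezh2-null and 122 in wild-type fetal liver, 5.45-fold higher, and both of its other probes were also higher by more than 2-fold. Kif11, the motor that pushes spindle poles apart, was detected in fetal liver on the Ezh2-null array alone (87.1, against 6.10 in wild type), at least 4.51-fold higher. Kif2c, the centromeric depolymerase, read 68.6 in Ezh2-null fetal liver, against 13.3 in wild type, at least 3.56-fold higher. Kifc1, a minus-end motor that clusters poles, was the lower gene, with 12.1 in Ezh2-null, not well above background, and 42.5 in wild-type fetal liver, at least 3.28-fold lower. The RefSeq table names this probe Kifc5b, a near copy, so that its signal cannot be given to either gene with certainty. Kif23, the central spindle motor, was not well above background on any array.

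The kinases, cyclins and passenger proteins were measured for 12 of 12 genes in fetal liver. Of these, 9 lay within 2-fold, 1 of them (Aurkc) as a bound (group median −0.03). Aurka, a spindle pole kinase, read 1321 in Ezh2-null and 1385 in wild-type fetal liver. Plk1, which drives mitotic entry and exit, read 1138 in Ezh2-null and 1107 in wild type. Cdk1, the kinase of mitotic entry, read 220.5 in Ezh2-null and 175 in wild type. These 3 differed by at most 1.26-fold.

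Of its partners, cyclin B1 (Ccnb1) read 181 in Ezh2-null and 204 in wild-type fetal liver, and cyclin B2 (Ccnb2) 171 in Ezh2-null and 186 in wild type. Cdc20, the activator of the anaphase-promoting complex, read 3868 in Ezh2-null and 6094 in wild-type fetal liver, 1.58-fold lower. Birc5 (survivin) of the chromosomal passenger complex read 10769 in Ezh2-null and 11385 in wild type, and its other 2 probes also lay within 2-fold. The complex's kinase Aurkb read 21.0 in Ezh2-null and 20.9 in wild type, near the floor of 19.3 of the wild-type array. All of these lay within 2-fold, except that the 3′ probe of Ccnb1 read 128 in Ezh2-null and 55.3 in wild-type fetal liver, higher by 1.21 on the log2 scale.

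The exceptions of the group were the scaffold Incenp, the spindle assembly factor Tpx2 and Aurkaip1, a mitochondrial protein that binds Aurora A. Incenp read 1530.0 in Ezh2-null and 681 in wild-type fetal liver, higher by 1.17 on the log2 scale, with its second probe at 725 in Ezh2-null and 328 in wild type. Tpx2 read 118 in Ezh2-null and 25.2 in wild-type fetal liver, 4.67-fold higher. Aurkaip1 read 5174 in Ezh2-null and 11377 in wild-type fetal liver, 2.20-fold lower.

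Kinesins of transport and other functions had 17 measured members in fetal liver, 5 at least 2-fold higher on the Ezh2-null array and 1 lower (median 0.00). Of the 17 values 9 were bounds, 4 of the 5 higher ones among them. The bounds of Kif5a, Kif9 and Kifc3 were 0 because of the floor, so the median does not show an absence of difference. Higher were, among others, the cargo motor Kif13a, with 112 in Ezh2-null and 17.8, not well above background, in wild type, at least 5.79-fold. Kif3c, of the kinesin-2 family, was the lower one, with 21.4 in Ezh2-null and 49.5 in wild type, 2.31-fold lower. Smc5, of the SMC5/6 repair complex, read 51.2 in Ezh2-null and 57.4 in wild type, and Smchd1, an SMC-like protein of X inactivation, 60.4 in Ezh2-null and 57.5 in wild type, both within 2-fold. A second Smchd1 probe, nearer the 5′ end, read 125 in Ezh2-null and 28.8 in wild-type fetal liver, 4.33-fold higher. The 22 higher and 6 lower of 50 measured mitotic members stood beside 6 higher and 1 lower of 23 remaining members.

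Probe position and other cells' markers moved with this comparison. Over all 15645 genes with a probe position, 31.5% of those whose probe begins 4000 bases or more into the transcript were at least 2-fold higher in Ezh2-null fetal liver, against 7.70% of those with a probe in the first 1000 bases. Among members, 10 of 22 were higher with a probe from 4000 bases on, 12 of 26 from 2000 to under 4000, 5 of 18 from 1000 to under 2000, and 1 of 7 below 1000, where 4 were lower. Over all genes 23.1% were higher from 2000 to under 4000 bases and 14.0% from 1000 to under 2000. Below 1000 bases 18.2% of all genes were lower. Spearman's rho between position and difference was 0.30 over the members and 0.29 over all genes, as a description across genes. With the trend over all genes removed, 24 members were at least 2-fold higher and 6 lower, where 13.5% and 13.6% of all genes were. The member median then fell from 0.22 to −0.002 on the log2 scale, against −0.18 over all genes. Mki67, Smc3, Cenpe and Ncapg2 have probes beyond 4000 bases, and those of Cenpa and Spc24 begin 291 and 434 bases in. Probes of condensin and cohesin genes begin 2504 to 6313 bases in, those of kinases, cyclins and passenger genes 705 to 3336. Kinetochore and centromere probes begin 264 to 7695 bases in. The part of position in the contrast between role groups was not tested. Of 10 hepatocyte markers, 3 were detected in Ezh2-null and 5 in wild-type fetal liver, with summed levels of 182 in Ezh2-null and 718 in wild type, while albumin (Alb) and Ttr were not well above background on either array. The part of probe position, hepatocyte RNA and the lower erythroid sum in the member differences was not tested beyond the trend.

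**Figure D3:**
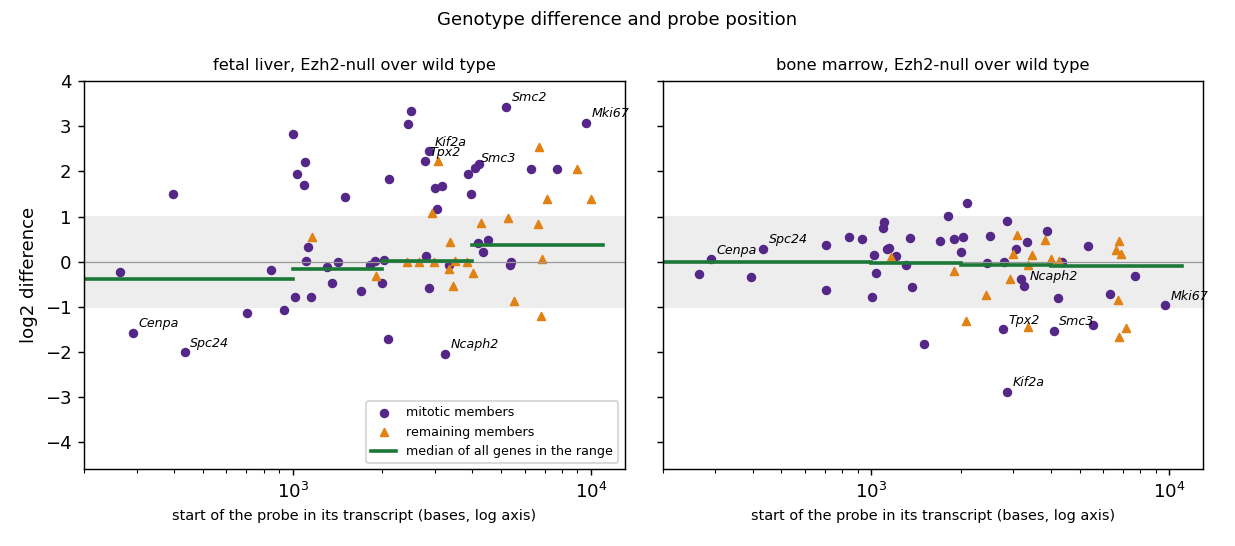
Ezh2-null over wild-type difference on the log2 scale (vertical axis) of each member against the start of its probe in the transcript (bases, log axis), in fetal liver (left) and bone marrow (right). Green lines are medians of all genes in 4 position ranges, which in fetal liver climb from −0.38 to 0.37 and in bone marrow stay between −0.10 and −0.01; members far above the lines in fetal liver occur in all ranges.

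In adult bone marrow 2-fold differences between the genotypes were rarer than in fetal liver, among the members and among all genes alike. Of 64 members measured, 2 were at least 2-fold higher on the Ezh2-null array and 9 lower, 3.12% and 14.1%, where 4.54% and 7.64% of all 15275 genes were (12.2% either way). With normexp 0 of 62 were higher and 1 lower, where 1.12% and 1.30% of all genes were. The median was 0.06, against −0.03 over all genes. The 2 higher were Aurka, with 2024 in Ezh2-null and 997 in wild-type bone marrow (2.03-fold), and Kifc1, with 27.2 in Ezh2-null and 4.70, not well above background, in wild type (at least 2.44-fold).

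Among the kinases, cyclins and passenger genes, Aurka was at least 2-fold higher in bone marrow and Tpx2 lower. The median of the 11 measured was 0.43 and 9 were above 0, where 6912 of 15275 genes were, as a description. Plk1 read 918 in Ezh2-null and 630.2 in wild-type bone marrow, Cdc20 3809 in Ezh2-null and 2763 in wild type, and Birc5 13092 in Ezh2-null and 9728 in wild type. These differences were 1.46-fold, 1.38-fold and 1.35-fold, against a log2 SD between spots of a probe of 0.106 on the Ezh2-null and 0.0797 on the wild-type array. The spread between arrays of 1 group is not known, so these differences cannot be set against replicate error. All 3 Birc5 probes were higher in Ezh2-null bone marrow, by 0.43, 0.38 and 0.59 on the log2 scale. Ccnb2 (551 in Ezh2-null and 579 in wild type) and Tpx2 were the 2 genes of the group below 0. Tpx2 read 14.7 in Ezh2-null and 41.5 in wild-type bone marrow, 2.82-fold lower.

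The other lower members were mostly dim. Kif2a read 9.997, not well above background, in Ezh2-null and 73.7 in wild-type bone marrow, at least 7.37-fold lower. Its probes disagreed there: the 3′ one read 52.5 in Ezh2-null and 23.0 in wild type, higher by 1.19 on the log2 scale, and the remaining probe 8.42 in Ezh2-null and 21.9 in wild type. The centromere DNA binder Cenpb read 6.26, not well above background, in Ezh2-null and 35.4 in wild-type bone marrow, at least 3.55-fold lower, but its other 2 probes went the other way, by 0.22 and 0.71 on the log2 scale, both bounds. The neuronal motor Kif5c read 17.7 in Ezh2-null and 55.9 in wild-type bone marrow, 3.17-fold lower, and Smc5 5.21, not well above background, in Ezh2-null and 27.4 in wild type, at least 2.74-fold lower. Of 7 measured condensin and cohesin genes 1 (Smc3) was at least 2-fold lower and 0 higher (median −0.00), and of 15 kinetochore and centromere genes 1 (Cenpb) was lower and 0 higher (median −0.25). Spc25 read 166 in Ezh2-null and 89.4 in wild-type bone marrow, 0.89 higher on the log2 scale. Near 0, Cenpa read 278 in Ezh2-null and 269 in wild-type bone marrow, Ncapd2 249 in Ezh2-null and 249 in wild type, and Cenpo 247 in Ezh2-null and 252 in wild type. The lymphoid marker list stood apart in this pair, with 10 of 14 markers detected in Ezh2-null and 4 in wild-type bone marrow and summed levels of 4089 in Ezh2-null and 234 in wild type, while Rag1 and Ebf1 were not well above background on either. The brightest of this list in Ezh2-null bone marrow were Vpreb1 (2203, against 10.6, not well above background, in wild type) and Dntt (1381, against 76.6 in wild type). Pax5 went the other way, with 67.9 in Ezh2-null and 77.6 in wild-type bone marrow. The part of lymphoid cells in the member differences was not tested.

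**Figure D4:**
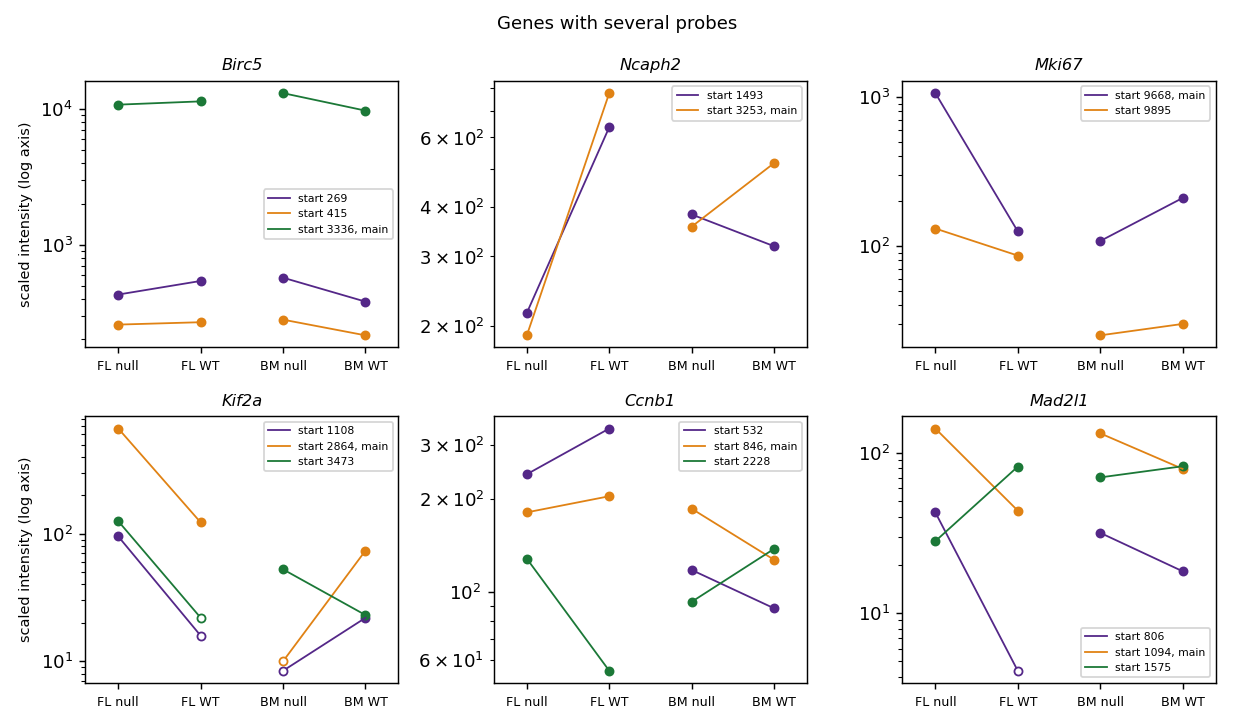
Scaled intensity (vertical axis, log scale) of every probe of 6 genes on the 4 arrays (FL null and FL WT, Ezh2-null and wild-type fetal liver; BM null and BM WT, Ezh2-null and wild-type bone marrow), with lines joining the 2 genotypes of a source and open points not well above background. The probes of Birc5 and of Mki67 go the same way within each source, those of Ncaph2 do in fetal liver and not in bone marrow, and those of Ccnb1 and Mad2l1 cross.

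The genotype differences of the sources were then set side by side; they share no array, but each rests on 1 pair. None of the 57 members measured in both pairs was at least 2-fold the same way in both, where 133 of 13864 genes were higher and 83 lower in both. The opposite was seen for 5 members: Kif2a, Smc3, Tpx2 and Cenpb were higher in Ezh2-null fetal liver and lower in Ezh2-null bone marrow, and Kifc1 was the reverse. Over all 13864 genes, 423 were higher in fetal liver and lower in bone marrow, and 93 the reverse. Over the 44 members detected on all 4 arrays, Pearson's r between the genotype differences was −0.42 and Spearman's rho −0.34, against −0.23 and −0.22 over 11171 genes, as a description across genes of the same 4 arrays. The bone marrow genotype difference minus that of fetal liver was beyond 4-fold for 8 of these 44 members. It was above for 1 (2.27%) and below for 7 (15.9%), where 3.03% and 6.36% of all genes were. Spc24 was above, by 2.29 on the log2 scale. Mki67 (−4.03), Tpx2 (−3.72), Smc3 (−3.61), Ncapg2 (−2.78), Cenpe (−2.36), Cenpk (−2.20) and Bub1b (−2.07) were below.

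Next, bone marrow was set against fetal liver within each genotype; both comparisons share arrays with the genotype comparisons, and their values are given side by side. In wild type, 9 of 63 measured members were at least 2-fold higher in bone marrow and 15 lower (14.3% and 23.8%), where 13.1% and 31.8% of all 15379 genes were (44.9% either way). In Ezh2-null, 8 of 77 were higher in bone marrow and 34 lower (10.4% and 44.2%), where 10.4% and 26.9% of all 16684 genes were (37.2% either way). These directions depend on the scaling. Among called members 37.5% were higher in bone marrow in wild type, against 56% with the percentile over all probes, 58.3% with quantile normalization and 97.1% with spike-in scaling. In Ezh2-null the share was 19.0%, against 45%, 35.9% and 50% with those scalings. Among called genes as a whole it was 29.2% in wild type, against 54.9%, 49.6% and 94.3%, and 27.9% in Ezh2-null, against 64.2%, 50.5% and 68.7%. Normexp moved it to 12.0% of called genes and 9.52% of called members in wild type. The all-gene median of −0.58 in wild type and −0.51 in Ezh2-null became 0.66 and 0.20 with spike-in scaling. Relative to the median of all genes, 38 of the 63 members lay above it in wild type and 35 of the 77 in Ezh2-null, and these counts were 41 and 35 with spike-in scaling.

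Some genes kept their direction in both genotypes. Ccnb2 read 551 in Ezh2-null bone marrow and 171 in Ezh2-null fetal liver, and 579 in wild-type bone marrow and 186 in wild-type fetal liver, 3.22-fold and 3.11-fold higher in bone marrow. Kif20a, the cytokinesis motor, read 236 in bone marrow of either genotype, against 62.3 in Ezh2-null and 56.9 in wild-type fetal liver. Cenpe went the other way, with 12.0 in Ezh2-null bone marrow and 326 in Ezh2-null fetal liver, and 14.9 in wild-type bone marrow and 78.9 in wild-type fetal liver. Smc3 read 22.4 in Ezh2-null bone marrow, against 887 in Ezh2-null fetal liver (39.5-fold lower), and 64.8 in wild-type bone marrow, against 209.7 in wild-type fetal liver (3.24-fold lower). Kif2a was at least 66.8-fold lower in Ezh2-null bone marrow than in Ezh2-null fetal liver, and 1.66-fold lower in wild type, where spike-in scaling turned the value to 0.54 on the log2 scale. Cenpo was at least 13.1-fold higher in wild-type bone marrow than in wild-type fetal liver and 1.56-fold higher in Ezh2-null. Bub1b was 5.27-fold higher in bone marrow than in fetal liver in wild type and 1.25-fold in Ezh2-null. For Mki67, bone marrow was 1.67-fold higher in wild type and 9.80-fold lower in Ezh2-null. Of 23 members with a probe from 4000 bases on, 17 were lower in Ezh2-null bone marrow than in Ezh2-null fetal liver, and 0 of 8 below 1000 bases were, where 48.4% and 20.5% of all genes were.

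An additive limma fit took genotype and source, with 1 residual degree of freedom. That residual is the disagreement of the genotype difference between the sources, so fetal liver and bone marrow stood in as replicates of genotype. The SE is thus no replicate error, and a difference that depends on the source enters it as error. Smc3, at 2.08 in fetal liver and −1.53 in bone marrow on the log2 scale, came out at 0.28 for genotype. For genotype 0 of 73 members passed an adjusted p of 0.05, where 0% of 16249 genes did, and 4 members had an unadjusted p below 0.05, against 1.71% of all genes. The lowest member p was that of Spc25, higher in Ezh2-null by 1.54 ± 0.50 (SE) on the log2 scale in the limma fit (adjusted p = 0.996). For source 0 members passed, where 0% of all genes did, and 13 had an unadjusted p below 0.05, against 16.4% of all genes. Cenpe had the lowest p, lower in bone marrow by −3.06 ± 0.61 (SE) in the limma fit (adjusted p = 0.207). Under 3 alternative settings Cenpe and Smc3 passed for source, with an adjusted p of the limma fit of 0.0171 for Cenpe and 0.0243 for Smc3 over genes detected on every array. Smc2 and Kif2a, both lower in bone marrow, and Ccnb2, higher in bone marrow, passed in 2 of these settings, the percentile over all probes and normexp. In these the SE was the same for every member that passed, 0.631 and 0.359. It thus does not measure a gene's own spread, and in the main fit the SE of Kif2a was 1.05. Over all genes the source term called 959 of 16432 with the percentile over all probes, 1289 of 16835 with normexp and 258 of 11171 with detection on every array.

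Regulators of mitosis outside the name rule were listed as well. Of 98 such genes, all on the array, 84 were well above background somewhere. In fetal liver 27 of 80 measured were at least 2-fold higher in Ezh2-null and 5 lower (median 0.46), where 15.4% and 13.3% of all genes were. Of the 80 values 19 were bounds, 10 of the 27 higher ones among them. Counts of this list with normexp or with the position trend removed are not given here. In bone marrow 3 of 74 were higher and 9 lower (median −0.01), where 4.54% and 7.64% of all genes were. Higher in Ezh2-null fetal liver were the spindle protein Dlgap5 (287 in Ezh2-null and 11.3, not well above background, in wild type, at least 14.9-fold) and the midzone bundler Prc1 (159.8 in Ezh2-null and 14.8, not well above background, in wild type, at least 8.28-fold). So were the kinetochore protein Zwilch (154 in Ezh2-null and 24.6 in wild type, 6.28-fold) and the Cdk phosphatase Cdc25a (576 in Ezh2-null and 98.5 in wild type, 5.85-fold). Lower there were the kinetochore protein Ska1 (at least 3.36-fold), securin (Pttg1, 440.0 in Ezh2-null and 1281 in wild type, 2.91-fold), the cohesin regulator Pds5a (2.91-fold) and the anaphase-promoting complex activator Fzr1 (273 in Ezh2-null and 722 in wild type, 2.64-fold).

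In bone marrow the higher regulators were Cdc25b, another Cdk phosphatase (54.6 in Ezh2-null and 9.19, not well above background, in wild type, at least 4.92-fold), cyclin F (Ccnf, 219 in Ezh2-null and 81.3 in wild type, 2.69-fold) and the Cdk1 inhibitory kinase Pkmyt1 (206 in Ezh2-null and 88.9 in wild type, 2.32-fold). Lower were, among others, the cohesin subunit Stag1 (at least 8.31-fold), the kinetochore protein Kntc1 (at least 4.06-fold), the microtubule binder Clasp2 (at least 3.35-fold) and the kinetochore protein Mis12 (at least 3.34-fold). None of these 4 was well above background on the Ezh2-null array, with readings between 2.35 and 9.96 there and between 33.3 and 83.0 in wild type. In wild type 15 of 73 regulators were higher in bone marrow than in fetal liver and 17 lower, where 13.1% and 31.8% of all genes were. In Ezh2-null 8 of 82 were higher in bone marrow and 30 lower, where 10.4% and 26.9% of all genes were.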

How the data were processed

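The deposited intensity values were Agilent Feature Extraction 10.7.3.1 output on build mm9, per the file headers: processed signals, background-subtracted and detrended within each array, with no step between arrays. Per the file headers, the mean and local background intensity, needed for normexp, were unprocessed. Flags of 0 or 1 for signal above background, saturation and outliers were deposited as well. The authors' series table held the processed intensities rounded, within 0.496% of the scanner values and with column medians of 10.8 and 7.05 (Ezh2-null and wild-type fetal liver) and 8.63 and 10.3 (Ezh2-null and wild-type bone marrow), and was not used further. Per the labels' protocols, 250 ng of total RNA was amplified with spike-in RNA and labelled with Cy3. All arrays lay on 1 slide.

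Control and outlier spots (95 to 135 an array) were left out, and no spot was saturated. Spots of a probe were averaged, and log2 intensities were scaled to an equal 75th percentile over 12874 probes detected everywhere, since under 50% of probes were above background. The array floors, the lowest detected signals, were 12.95 and 19.3 (Ezh2-null and wild-type fetal liver) and 9.99 and 11.1 (Ezh2-null and wild-type bone marrow). A bound sets the bright signal against the higher of the floor and the dim signal, and is 0 where that exceeds it. The brightest probe stood for a gene. The log2 SD between replicate spots (399 probes with 10 spots) had a median of 0.106 and 0.143 (Ezh2-null and wild-type fetal liver) and 0.106 and 0.0797 (Ezh2-null and wild-type bone marrow), an error within arrays; with 4 arrays, their number sets the precision. Names came from the files; a RefSeq table (GRCm38.p6) renamed 5 members and gave names for the remaining genes. The fit used limma 3.58.1 (R 4.3.3) with Benjamini-Hochberg adjustment over 16249 genes and signals raised to 19.3. Its code was run on simulated signals that had the same genotype change in both sources and every gene detected. That run does not cover sources that disagree or dim signals, so it does not check the fit of these data. The members and lists were chosen with earlier results of these data known. Named were a core list, the extremes of each role group and the members called in both sources or in the difference of differences, and of the listed regulators up to 4 each way. Alternatives were another percentile, spike-in scaling (3 probes), quantile normalization, normexp (offset 50), averaged or 3′ probes, removal of the position trend, detection on every array, a 1.5-fold threshold and no floor. A marker gene is not reported here.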

Additional observations from a re-analysis of the deposited data

Results flagged for a closer look

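In 5 members the genotypes were at least 2-fold apart one way in fetal liver and the other way in bone marrow. They are 5 of 57 members measured in both sources, beside 423 genes higher in fetal liver and lower in bone marrow and 93 the reverse, of 13864. The difference between the sources was not tested, since each source has 1 array per genotype. All values here are log2 differences of Ezh2-null over wild type. Kif2a was at 2.45 in fetal liver and −2.88, a bound, in bone marrow. Smc3 was at 2.08 in fetal liver and −1.53 in bone marrow, and Tpx2 at 2.22 in fetal liver and −1.49 in bone marrow. Cenpb was at 1.44 in fetal liver and −1.83 in bone marrow, both bounds. Kifc1 was the reverse, with −1.72 in fetal liver and 1.29 in bone marrow, both bounds. Smc3 and Tpx2 were detected on all 4 arrays. The bone marrow difference of Kif2a and both differences of Cenpb turned with the probe nearest the 3′ end.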

How the results depend on the processing

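The limit throughout is 1 array per group, and dim members are limited by the floors. Leaving out an array would leave no residual degree of freedom, and with 1 slide no slide block could be fitted. No paired analysis was possible because each group is 1 array and the labels give no replicate numbers. The cause of the moves below was not tested. Called members are given as at least 2-fold higher or lower in the first-named group. With the percentile over all probes, wild-type bone marrow over fetal liver gave 14 higher, Ezh2-null bone marrow over fetal liver 18 higher and 22 lower, and the source term of the limma fit 7. Over all genes 18.5% were higher in the wild-type comparison, and 22.6% higher and 12.6% lower in the Ezh2-null one. With spike-in scaling, fetal liver by genotype gave 4 lower, bone marrow by genotype 1 higher, wild-type bone marrow over fetal liver 33 higher and 1 lower, Ezh2-null bone marrow over fetal liver 22 and 22, and the difference of differences 0 above. Over all genes 4.62% were lower in fetal liver by genotype and 4.17% higher in bone marrow by genotype. For bone marrow over fetal liver 38.3% were higher and 2.31% lower in wild type, and 25.4% and 11.6% in Ezh2-null. Against the all-gene median, 51 to 53 of the 73 or 74 members lay above it in fetal liver by genotype with each of these scalings, quantile normalization and normexp. With quantile normalization, bone marrow over fetal liver gave 14 higher in wild type and 14 in Ezh2-null, and the difference of differences 2 above. Over all genes 16.9% were higher in bone marrow in wild type and 15.6% in Ezh2-null. With normexp, fetal liver by genotype gave 9 higher and 4 lower (13 of 30 named calls stayed at 2-fold), bone marrow by genotype 0 higher and 1 lower, bone marrow over fetal liver 2 higher in wild type and 4 in Ezh2-null, the difference of differences 2 below, and the source term 9. Over all genes 4.89% were higher and 6.54% lower in fetal liver by genotype, and 1.12% and 1.30% in bone marrow by genotype. For bone marrow over fetal liver 4.64% were higher in wild type and 4.26% in Ezh2-null. With probes averaged, bone marrow by genotype gave 1 higher, where 4.09% of all genes were. With detection on every array, fetal liver by genotype gave 13 higher, bone marrow by genotype 1 higher and 2 lower, wild-type bone marrow over fetal liver 5 higher, Ezh2-null bone marrow over fetal liver 14 lower, and the source term 2. Over all genes detected on every array 12.6% were higher in fetal liver by genotype. In bone marrow by genotype 2.74% were higher and 4.19% lower. For bone marrow over fetal liver 12.6% were higher in wild type and 21.9% lower in Ezh2-null. At 1.5-fold, fetal liver by genotype gave 12 lower, bone marrow by genotype 7 higher and 16 lower, wild-type bone marrow over fetal liver 16 higher and 25 lower, Ezh2-null bone marrow over fetal liver 14 higher, and the difference of differences 7 above and 11 below. Over all genes 28.7% were lower in fetal liver by genotype. In bone marrow by genotype 9.76% were higher and 15.6% lower. For bone marrow over fetal liver 19.4% were higher and 49.8% lower in wild type, and 17.5% higher in Ezh2-null. The difference of differences was called in this setting at 2 times the 1.5-fold threshold on the log2 scale. Its share over all genes was not computed in the alternative settings, so its member counts there cannot be set against all genes. The genotype term called 0 members in each of the 8 settings in which the limma fit was run, which leaves out the 3′ probe, the removed position trend and the 1.5-fold threshold. Of all genes it called 8 of 16432 with the percentile over all probes, 14 of 16835 with normexp and 0 in each remaining setting. Over all genes the source term called 959, 1289 and 258 with the percentile over all probes, normexp and detection on every array. In the first 2 of these settings the members that passed shared 1 SE, which does not measure a gene's own spread. Directions turned on the log2 scale with spike-in scaling for wild-type bone marrow over fetal liver in Cdc20 (0.13), Smc1a (0.16) and Smc5 (0.21), and for Smc5 also with probes averaged (1.54). With the 3′ probe they turned in fetal liver by genotype for Cenpb (−0.10) and Mad2l1 (−1.55), and in bone marrow by genotype for Cenpb (0.22) and Kif2a (1.19).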
